A study of Drosophila melanogaster with 17 samples.

Results

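The 10 genes described here encode enzymes of the tricarboxylic acid cycle, together with the cytosolic malate dehydrogenase. They were picked by gene identifier, with earlier results of these data known, and all 10 were found among the 14659 rows of the deposited expression matrix. They are kdn (CG3861), Acon (CG9244), Idh3a (CG12233, listed as l(1)G0156), Nc73EF (CG11661, now Ogdh), Scsalpha (CG1065), SdhA (CG17246), SdhB (CG3283), fumarase (CG4094, listed as l(1)G0255, now Fum1), Mdh2 (CG7998) and Mdh1 (CG5362). The values come from RNA sequencing of the fat body, the larval organ of Drosophila melanogaster that stores fat and glycogen and shares functions with liver and adipose tissue. The larvae were female, at the wandering stage of the third instar, and had fed since hatching on a control diet (control food) of 0.15 M sucrose or on a high-sugar diet of 0.7 M. Every larva carried cgGAL4, which drives expression in the fat body and in hemocytes, and UAS-Dcr2, which strengthens RNA interference. Wild-type larvae had the VDRC w1118 background with these transgenes alone, and knockdown larvae also carried the hairpin construct UAS-ChREBPi(52606), directed against the sugar-responsive transcription factor ChREBP (Mondo, listed as dmondo). Wild type has 6 libraries per diet and the knockdown 3 (control diet) and 2 (high sugar), all labelled as biological replicates. No group carried a control hairpin, so effects of the construct and of lower dmondo cannot be told apart.

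The cycle oxidises the acetyl group of acetyl-CoA in mitochondria and passes the electrons to the respiratory chain. In fat-making tissue it also supplies citrate, which leaves the mitochondrion as a carbon source for fatty acid synthesis, so several enzymes sit at a branch between energy and lipid production. Malate dehydrogenases in the mitochondrion and the cytosol interconvert malate and oxaloacetate, and so carry reducing equivalents between both compartments.

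Because the deposited file names no unit, its values were taken as FPKM, which are scaled to transcript length and to the mapped fragments of a library. Read depth is therefore unknown, and column sums ran from 29778.6 to 62263.5. Such sums are low for FPKM over a whole transcriptome, so a further scaling before deposit is possible, and every level, the minimum mean and the log2 changes below are on the scale as deposited. Replicates 1 to 3 of every group carried 1 barcode per group (shared-barcode libraries, 11 in all, every knockdown library among them), and wild-type replicates 4 to 6 carried a barcode each (own-barcode libraries, 6 in all). The set was kept as a term in the fits. The knockdown target dmondo had 1.102 to 1.83 FPKM in control-diet wild type and 2.03 to 3.01 on high sugar, and at 0.310 to 0.535 and 0.187 to 0.286 FPKM in the knockdown. Every knockdown library therefore lay below every wild-type library.

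Both knockdown libraries on high sugar stood apart from the other 15. The 7 fat body markers examined made up 4.23% and 4.38% of their summed values, against 14.4% to 26.8% elsewhere, and each marker's group mean was lowest there. Glue genes of the salivary gland made up 10.8% and 11.6%, against 3.91% to 11.6% in the other shared-barcode libraries and 0.0128% to 1.89% in the own-barcode ones. Of these glue genes Sgs5, Sgs7 and Sgs8 had their highest group mean in the knockdown on high sugar, and Sgs3 its lowest (32.5 FPKM). Muscle markers, from a tissue rich in mitochondria, summed to 8.43 and 14.7 FPKM, against 0.903 to 12.4 elsewhere, and no member of that list had a group mean of 0. The 3 midgut markers summed to 47.0 and 61.8 FPKM, above every other library (0.320 to 42.4). Long transcripts were also low in both libraries: the slope of log2 value on log2 transcript length was -0.87 and -0.89 per doubling, against -0.54 to -0.05 elsewhere. The part of these differences in any result below was not tested, beyond fits that removed each library's length trend. In whole tissue, fewer cells of a type and less RNA per cell cannot be told apart. The knockdown against wild type on high sugar, the diet effect in the knockdown and the interaction all rest on these libraries and share them.

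Tissue markers also moved with diet among the own-barcode wild-type libraries. The 3 hemocyte markers summed to 5.68 to 8.18 FPKM on control food and to 0 to 0.0314 on high sugar, where NimC1 and PPO2 were at 0 in all 3 libraries. The Malpighian tubule marker Uro was at 14.6 to 22.6 FPKM and at 2.22 to 2.38 on high sugar. The 3 midgut markers summed to 1.52 to 22.2 and to 0.320 to 0.398 FPKM, with Jon25Bi and Jon99Ci at 0 on high sugar, and the 4 glue genes to 32.4 to 564 and to 5.18 to 18.1. The fat body markers went the other way, from 16.6% to 21.6% of the summed values on control food to 26.1% to 26.8% on high sugar, and column sums went from 29778.6 to 33180.5 up to 40140.5 to 45721.5. In the shared-barcode wild-type libraries the diets overlapped for each of these lists, and muscle markers were lower on high sugar (2.95 to 5.09 FPKM against 7.77 to 12.4). Column sums went down there without overlap, from 48416.1 to 53148.4 on control food to 44732.1 to 48134.6 on high sugar, opposite to the own-barcode libraries. The part of these marker differences in the wild-type sugar effects was not tested.

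The cytosolic Mdh1 had the highest level of the 10 genes in every group. On the FPKM scale, which is per transcript length, its mean in wild type on the control diet was 43.3 ± 9.73 (SD, n = 6), followed by Scsalpha at 12.8 ± 2.32 and Mdh2 at 8.21 ± 2.64. Mdh1 was higher than Scsalpha without overlap of their libraries, and Scsalpha and Mdh2 overlapped. The next 5 genes lay close together, from Idh3a (1.82 ± 0.222) through Acon, fumarase and SdhB down to Nc73EF (1.01 ± 0.118), and each overlapped its neighbour in the order. The lowest were kdn at 0.533 ± 0.145 FPKM and SdhA at 0.382 ± 0.0544, which overlapped each other. Mdh1 alone made up 59.0% ± 3.50 (SD, n = 6) of the summed level of the 10 genes, and 98.5% of the genes above 0 in that group lay below it. The relative spread over libraries (coefficient of variation) had a median over the 10 genes of 16.5% in wild type on the control diet, 23.0% in wild type on high sugar and 26.6% in the knockdown on the control diet.

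**Figure D1:**
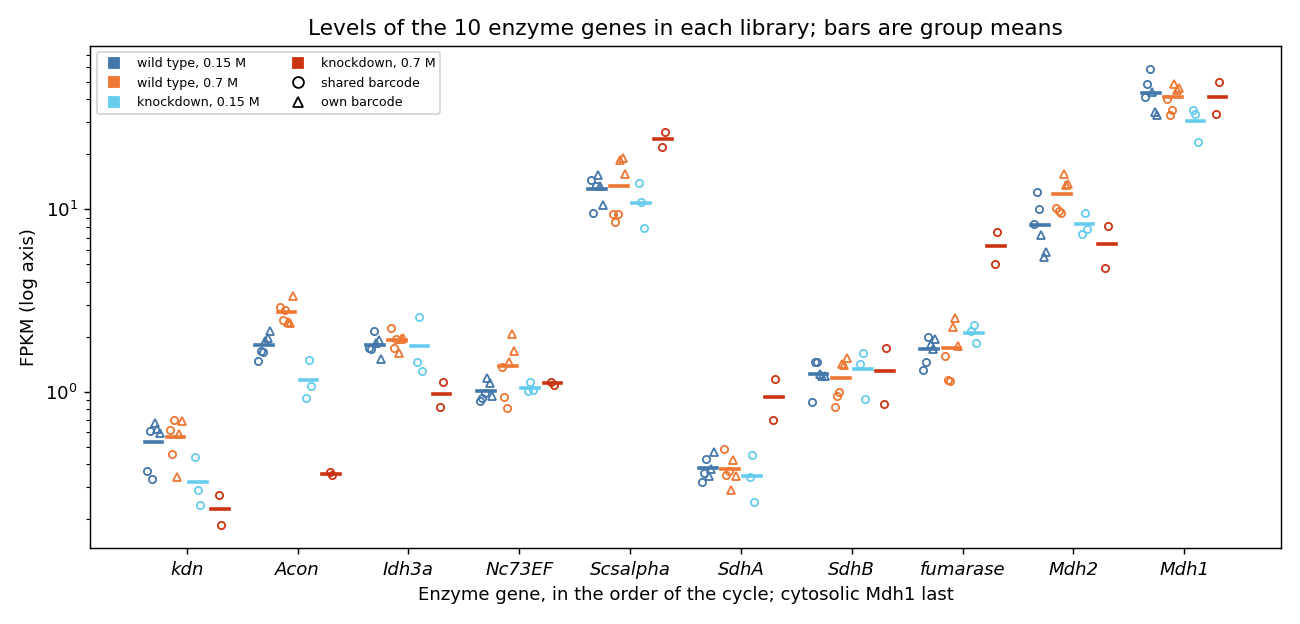
Level of each of the 10 enzyme genes in every library, in FPKM on a log axis, with genes in the order of the cycle. Circles are shared-barcode and triangles own-barcode libraries, and bars are group means. Mdh1 is highest in each group, and the 2 knockdown libraries on high sugar lie apart for Acon (0.361 and 0.349) and fumarase (5.04 and 7.56).

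On high sugar in the knockdown the order of the genes changed. Fumarase stood at 6.30 ± 1.78 FPKM (SD, n = 2), next to Mdh2 at 6.42 ± 2.34, with overlapping libraries. Acon went from the fourth place in wild type on high sugar to the ninth, just above kdn. The summed level of the 10 genes was 72.9 ± 12.1 and 76.9 ± 14.5 FPKM for the wild-type diets, control first (SD, n = 6 each), and 57.7 ± 10.4 (SD, n = 3) and 83.4 ± 20.2 (SD, n = 2) in the knockdown. These sums overlapped between all groups except the knockdown groups on their different diets, where the lowest high-sugar library (69.0) lay above the highest control library (64.0).

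The first comparison asks what high sugar did to these genes in the wild-type fat body. Acon rose and no other member was called. With a threshold of 0.05 on p values of limma adjusted by the Benjamini-Hochberg method, 1 of the 8 members above the minimum mean of 1 FPKM was called, against 15.5% of all 2383 tested genes (9.44% higher and 6.08% lower). The median log2 change of these 8 was 0.03, beside 0.02 over all tested genes. SdhA and kdn stayed below the minimum and were tested only in a fit without it.

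The second comparison is that of knockdown with wild type on the control diet. None of the 8 members was called by limma, against 5.62% of all tested genes. At an unadjusted p under 0.05, which 19.2% of all tested genes met, there were 3, Acon and Mdh1 with lower and fumarase with higher values in the knockdown. The median log2 change of the members was 0.01, beside -0.03 over all tested genes.

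The third comparison is that of knockdown with wild type on high sugar, where members went in both directions. Scsalpha and fumarase were higher in the knockdown and Acon, Idh3a and Mdh2 lower, so 5 of 8 were called by limma, against 60.6% of all tested genes (27.2% higher and 33.4% lower). The fourth, high sugar against control diet within the knockdown, called 4 of 8, against 60.3% of all genes (29.2% higher and 31.1% lower): Scsalpha and fumarase rose, and Acon and Idh3a fell. The same 4 genes had an interaction between knockdown and diet, where 51.8% of all genes were called. The members' share was close to the background in each of these. The median log2 change of the members was -0.02, 0.003 and -0.09 in this order, beside -0.08, 0.01 and -0.03 over all tested genes.

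**Figure D2:**
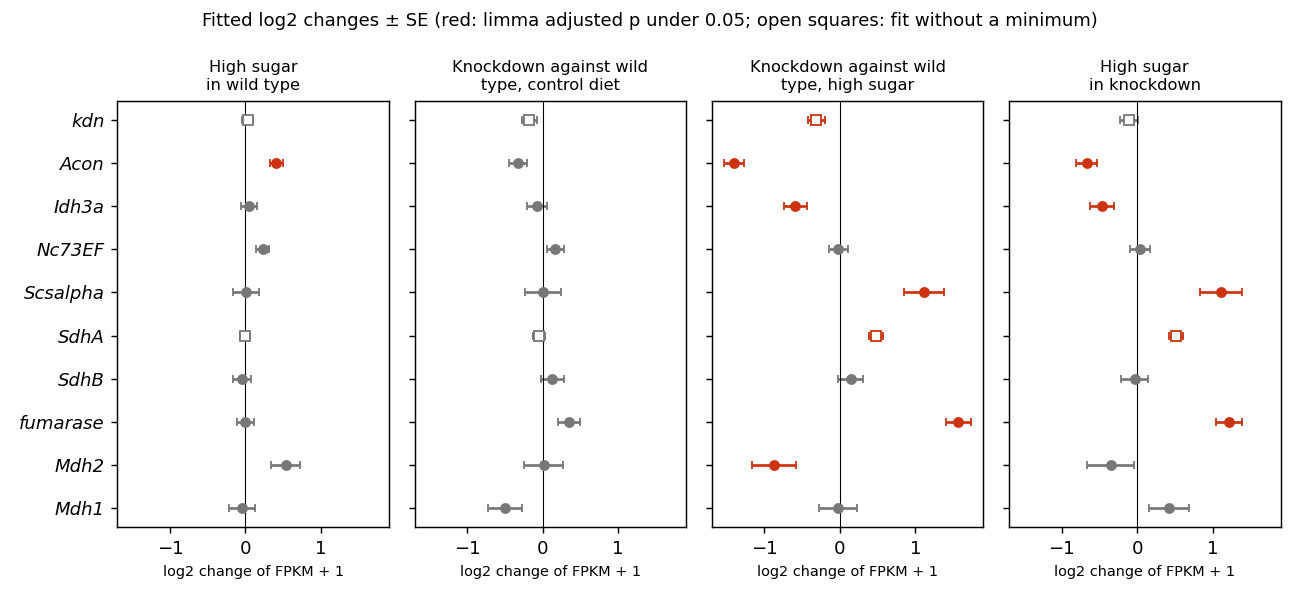
Log2 change of FPKM + 1 with its standard error for the 10 genes in the 4 comparisons between groups. Filled points come from the fit of genes above the minimum mean and open squares (kdn and SdhA) from the fit without it, and red marks a limma adjusted p under 0.05. Acon lies at 0.41 in the first panel and at -1.40 in the third, and fumarase at 1.57 in the third.

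Citrate synthase and aconitase carry out the first steps of the cycle. Citrate synthase (kdn) joins acetyl-CoA to oxaloacetate. Its level was 0.331, 0.601 and 0.675 FPKM (lowest, median, highest) in wild type on the control diet and 0.341, 0.603 and 0.700 on high sugar. The knockdown libraries had 0.436, 0.289 and 0.238 FPKM on control food and 0.271 and 0.185 on high sugar. Both of the last libraries lay below all wild-type libraries, while the control-diet groups overlapped. In the fit without a minimum kdn was lower in the knockdown on high sugar, with a log2 difference of -0.31 ± 0.11 (SE, limma adjusted p = 0.036), where 41.1% of the 9696 genes were called. It was called neither for the control diet (-0.18 ± 0.10, limma adjusted p = 0.45, 2.5% of genes called) nor for sugar in wild type (0.03 ± 0.07, limma adjusted p = 0.90, 4.29% called).

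Mitochondrial aconitase (Acon) turns citrate into isocitrate. Its level was 1.48, 1.79 and 2.16 FPKM (lowest, median, highest) in wild type on the control diet and 2.39, 2.64 and 3.35 on high sugar, with no overlap between the diets. On the log2(FPKM + 1) scale, which understates changes of low genes, it rose with sugar by 0.41 ± 0.09 (SE, limma adjusted p = 0.0058). The call was lost when the libraries were scaled to equal totals (0.30, limma adjusted p = 0.10), and without both knockdown high-sugar libraries in the fit the change was the same (limma adjusted p = 0.0094). In the knockdown Acon was at 0.924, 1.502 and 1.07 FPKM on control food and at 0.361 and 0.349 on high sugar. The control-diet knockdown libraries overlapped wild type in 1 library, and both high-sugar ones lay below all others. Against wild type, the log2 difference was -0.33 ± 0.11 for the control diet (limma adjusted p = 0.12) and -1.40 ± 0.13 on high sugar (limma adjusted p = 8.2e-07). Within the knockdown Acon fell with sugar by 0.67 ± 0.14 (limma adjusted p = 0.00069), opposite to its rise in wild type, and the interaction was -1.07 ± 0.16 (limma adjusted p = 8.6e-05). With each library's length trend removed, Acon, one of the longer transcripts here, was at -0.81 against wild type on high sugar (limma adjusted p = 0.00027), at -0.46 in the interaction (limma adjusted p = 0.045), and at -0.09 for sugar within the knockdown, where the call was lost (limma adjusted p = 0.63).

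Isocitrate dehydrogenase and oxoglutarate dehydrogenase release carbon dioxide and make NADH. Idh3a, a subunit of the NAD-dependent isocitrate dehydrogenase, was at 1.504, 1.80 and 2.16 FPKM (lowest, median, highest) in wild type on the control diet and at 1.62, 1.95 and 2.25 on high sugar. The knockdown gave 1.46, 2.56 and 1.298 FPKM on control food and 0.822 and 1.13 on high sugar. The first 3 groups overlapped, and both knockdown libraries on high sugar lay below every other library. Idh3a differed by 0.05 ± 0.10 with sugar in wild type (SE, limma adjusted p = 0.79) and by -0.08 ± 0.14 between knockdown and wild type (control diet, limma adjusted p = 0.81). It was lower in the knockdown on high sugar (-0.59 ± 0.15, limma adjusted p = 0.0039) and fell with sugar within the knockdown (-0.46 ± 0.16, limma adjusted p = 0.022), with an interaction of -0.51 ± 0.19 (limma adjusted p = 0.036). Without replicate 1 of the knockdown on high sugar these values were -0.48 (limma adjusted p = 0.061), -0.35 (0.17) and -0.40 (0.18), and without replicate 2 of the knockdown on the control diet the last pair were -0.27 (0.094) and -0.32 (0.096). The fall within the knockdown was also lost with median-of-ratios scaling (-0.38, limma adjusted p = 0.056) and without wild-type replicates 4 to 6 (-0.46, limma adjusted p = 0.051). The interaction call was lost in 15 of 26 alternatives.

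Nc73EF, the first component of oxoglutarate dehydrogenase, was at 0.889, 0.966 and 1.19 FPKM (lowest, median, highest) in wild type on the control diet and at 0.816, 1.41 and 2.07 on high sugar. The knockdown libraries lay within these ranges, at 1.01, 1.13 and 1.02 FPKM on control food and 1.13 and 1.09 on high sugar. None of the 5 comparisons called it: the sugar change was 0.23 ± 0.09 (SE, limma adjusted p = 0.088) in wild type and 0.04 ± 0.14 in the knockdown (limma adjusted p = 0.81). Without wild-type replicate 3 on high sugar the wild-type change was called (0.28, limma adjusted p = 0.034). Its transcript is the longest of the 10, and with each library's length trend removed it was higher in the knockdown on high sugar (0.79, limma adjusted p = 0.00044) and rose with sugar in the knockdown (0.87, limma adjusted p = 0.00027), so its position in these comparisons depends on that choice. Its exons overlap those of Cpr73D and Obp73a in the current annotation.

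Succinyl-CoA synthetase makes ATP or GTP as it releases succinate, and Scsalpha is the subunit that its forms share. Its level was 9.56, 13.5 and 15.5 FPKM (lowest, median, highest) in wild type on the control diet and 8.58, 12.5 and 19.1 on high sugar. Knockdown values were 13.9, 10.9 and 7.88 FPKM on control food and 22.0 and 26.5 on high sugar. The first 3 groups overlapped, and both knockdown libraries on high sugar were above all others. Scsalpha was higher in the knockdown on high sugar by 1.11 ± 0.27 (SE, limma adjusted p = 0.0022) and rose with sugar within the knockdown by 1.11 ± 0.28 (limma adjusted p = 0.0032). Neither high sugar in wild type (0.01 ± 0.18, limma adjusted p = 0.98) nor the knockdown on control food (0.01 ± 0.23, limma adjusted p = 0.99) had a call. Within the barcode sets the wild-type diets did not overlap and went opposite ways. Shared-barcode libraries had 9.56 to 14.6 FPKM on control food and 8.58 to 9.39 on high sugar. Own-barcode libraries had 10.5 to 15.5 and 15.6 to 19.1, and neither set had a call. The interaction of 1.103 ± 0.33 (limma adjusted p = 0.012) was lost without replicate 2 of the knockdown on high sugar (0.97, limma adjusted p = 0.072).

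Succinate dehydrogenase oxidises succinate and is also a complex of the respiratory chain. SdhA, its flavoprotein, was at 0.320, 0.367 and 0.465 FPKM (lowest, median, highest) in wild type on the control diet and at 0.291, 0.359 and 0.485 on high sugar. Knockdown libraries had 0.342, 0.452 and 0.248 FPKM on control food and 0.697 and 1.18 on high sugar, the only libraries above 0.485. In the fit without a minimum it was higher in the knockdown on high sugar (0.48 ± 0.09, SE, limma adjusted p = 0.00078) and rose with sugar in the knockdown (0.52 ± 0.10, limma adjusted p = 0.0006), where 41.1% and 41.2% of genes were called. The interaction in that fit was 0.52 ± 0.11 (limma adjusted p = 0.0028), with 31.6% of genes called.

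The iron-sulfur subunit SdhB was at 0.877, 1.23 and 1.46 FPKM (lowest, median, highest) in wild type on the control diet and at 0.822, 1.20 and 1.52 on high sugar. Values in the knockdown were 1.42, 1.64 and 0.914 FPKM on control food and 0.854 and 1.74 on high sugar. All 4 groups overlapped and no comparison called it, with log2 changes from -0.05 ± 0.11 to 0.14 ± 0.17 (SE) in the 4 comparisons between groups. The ratio of SdhB to SdhA within a library was 1.23 and 1.47 in the knockdown on high sugar, against 1.69 to 4.88 in wild type on that diet and 3.63 to 4.17 in the knockdown on the control diet.

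Fumarase turns fumarate into malate. Its level was 1.31, 1.77 and 1.99 FPKM (lowest, median, highest) in wild type on the control diet and 1.14, 1.68 and 2.53 on high sugar. In the knockdown it was 2.15, 2.32 and 1.84 FPKM on control food and 5.04 and 7.56 on high sugar. Both of the latter were above every other library. Fumarase was higher in the knockdown on high sugar by 1.57 ± 0.17 (SE, limma adjusted p = 2.6e-06) and rose with sugar within the knockdown by 1.21 ± 0.17 (limma adjusted p = 3.3e-05). The interaction was 1.22 ± 0.21 (limma adjusted p = 0.00023). Each of these calls held without either of the high-sugar knockdown libraries and with the length trend removed. On the control diet the difference from wild type was 0.35 ± 0.15 (limma adjusted p = 0.20). Its exons overlap those of Fum2, a second fumarase gene, on the same strand by 79 bases in the current annotation, and Fum2 was at no more than 0.254 FPKM in any library.

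Malate dehydrogenase closes the cycle. The mitochondrial Mdh2 was at 5.47, 7.77 and 12.4 FPKM (lowest, median, highest) in wild type on the control diet and at 9.55, 11.9 and 15.6 on high sugar. In the knockdown it was at 7.37, 9.60 and 7.83 FPKM on control food and at 4.76 and 8.08 on high sugar. The diets overlapped in wild type, and both knockdown libraries on high sugar lay below all wild-type libraries on that diet. Mdh2 was lower in the knockdown on high sugar with a log2 difference of -0.87 ± 0.29 (SE, limma adjusted p = 0.018), a call lost without replicate 1 of that group (-0.54, limma adjusted p = 0.23). The sugar change was 0.53 ± 0.19 in wild type (limma adjusted p = 0.077) and -0.35 ± 0.31 in the knockdown (limma adjusted p = 0.34), with an interaction of -0.88 ± 0.36 (limma adjusted p = 0.053). With equal column totals the change in the knockdown was called (-0.56, limma adjusted p = 0.039). The wild-type change was called without control-diet replicate 2 (0.66, limma adjusted p = 0.027). The interaction was called with equal column totals (-0.97, limma adjusted p = 0.0065) and in 5 of the 17 fits that left out a library. Without the own-barcode libraries, a set with no knockdown library, the interaction shrank to -0.32 and was not called. The wild-type change was then at -0.03, and the knockdown difference on high sugar shrank to -0.59 and kept its call.

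The cytosolic Mdh1 was at 32.9, 42.7 and 58.9 FPKM (lowest, median, highest) in wild type on the control diet and at 33.0, 42.7 and 48.8 on high sugar. In the knockdown it was at 35.0, 33.1 and 23.3 FPKM on control food and at 33.1 and 49.8 on high sugar. All groups overlapped in part and no comparison called it, though with median-of-ratios scaling its rise with sugar in the knockdown was called (0.57, limma adjusted p = 0.044). Within each barcode set the wild-type diets did not overlap, in opposite directions. The shared-barcode libraries had 41.3 to 58.9 FPKM on control food and 33.0 to 40.5 on high sugar. The own-barcode ones had 32.9 to 44.0 and 44.9 to 48.8, with no call in either set. The difference between knockdown and wild type on the control diet was -0.50 ± 0.22 (SE, limma adjusted p = 0.25). Within a library Mdh1 exceeded Mdh2 by a ratio of 5.46 ± 0.857 in wild type on control food and 3.47 ± 0.302 on high sugar (SD, n = 6 each). In the knockdown the ratio was 3.73 ± 0.920 (SD, n = 3) on control food and 6.57 ± 0.557 (SD, n = 2) with high sugar.

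**Figure D3:**
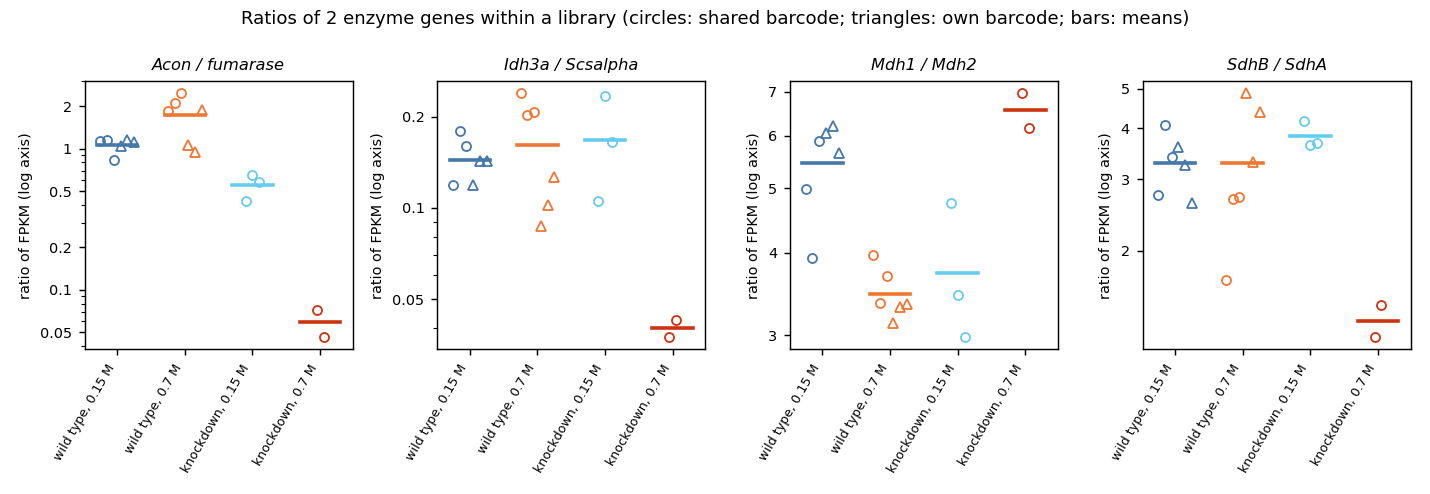
Ratio of the FPKM values of 2 members within each library, on log axes, for 4 pairs of genes. Circles are shared-barcode and triangles own-barcode libraries, and bars are group means. The Acon to fumarase ratio was 0.0717 and 0.0462 in the 2 knockdown libraries on high sugar, against 0.429 to 0.648 in the knockdown on the control diet.

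These ratios need no scaling between libraries, since both values come from the same one. A library's length trend remains in a ratio of genes that differ in length. Median transcript length was 2938 bases for Acon and 1704 for fumarase, and 1395 for Idh3a and 1364.5 for Scsalpha. It was 1219 for SdhB and 2663 for SdhA, and 1224 for Mdh1 and 1335 for Mdh2. The part of that trend in the ratios was not tested. Acon over fumarase was 1.07 ± 0.125 in wild type on control food and 1.72 ± 0.600 on high sugar (SD, n = 6 each). The knockdown had 0.553 ± 0.112 (SD, n = 3) on control food and 0.0589 ± 0.0180 (SD, n = 2) with high sugar, and each knockdown group lay below all wild-type libraries. Idh3a over Scsalpha was 0.119 to 0.180 in wild type on the control diet, 0.0874 to 0.239 on high sugar and 0.105 to 0.234 in the knockdown on the control diet. Only the knockdown on high sugar lay outside these ranges, at 0.0374 and 0.0427. The wild-type range on high sugar joins 2 separate sets, 0.203 to 0.239 in the shared-barcode and 0.0874 to 0.126 in the own-barcode libraries. A difference in a ratio shows that the 2 genes did not differ in proportion, not which of them changed.

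The wild-type sugar effect was also taken within each barcode set. In the shared-barcode libraries (3 on each diet) Acon was the only member called, at 0.52 ± 0.12 (SE, limma adjusted p = 0.015), against 6.38% of all tested genes. In the own-barcode libraries (3 on each diet) Nc73EF rose by 0.39 ± 0.11 (limma adjusted p = 0.012) and Mdh2 by 1.099 ± 0.18 (limma adjusted p = 0.00035), against 33.4% of all genes, and Acon was at 0.29 ± 0.12 (limma adjusted p = 0.065). The Acon call was lost when control-diet replicate 1 (0.48, limma adjusted p = 0.062) or high-sugar replicate 1 (0.48, limma adjusted p = 0.052) or 3 (0.50, limma adjusted p = 0.055) was left out, and with the length trend removed (0.45, limma adjusted p = 0.060). That of Nc73EF was lost without control-diet replicate 6 (0.34, limma adjusted p = 0.052), without high-sugar replicate 5 (0.30, limma adjusted p = 0.068) and with equal column totals (0.17, limma adjusted p = 0.32). The difference between the sets was -0.22 ± 0.16 for Acon (limma adjusted p = 0.35), and -0.58 with equal column totals, where it was called (limma adjusted p = 0.041). Hemocyte, Malpighian tubule, midgut and salivary gland markers were lower and the fat body share higher on high sugar in the own-barcode libraries, with the values given above, and their part in the rises of Nc73EF and Mdh2 was not tested.

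Mdh2 differed most between the sets. In the shared-barcode libraries it was at 8.27, 12.4 and 10.0 FPKM on control food and 10.2, 9.84 and 9.55 on high sugar. In the own-barcode libraries it was at 7.27, 5.47 and 5.82 FPKM on control food and 15.6, 13.6 and 13.8 on high sugar. The diets overlapped in the first set and were apart in the second. In that second set the hemocyte markers also differed (5.68 to 8.18 FPKM on control food, at most 0.0314 on high sugar). So did the fat body, Malpighian tubule, midgut and salivary gland markers, while the muscle markers overlapped (0.903 to 1.83 and 1.58 to 4.44 FPKM). The test of the difference gave 1.13 ± 0.25 (SE, limma adjusted p = 0.0072), the only member called where 19.8% of all genes were. Scsalpha (0.82 ± 0.28, limma adjusted p = 0.057) and Mdh1 (0.78 ± 0.27, limma adjusted p = 0.061) had estimates in the same direction, and were called when certain single libraries were left out (4 and 5 of the 17, respectively). With the length trend removed Scsalpha (0.77, limma adjusted p = 0.0496) and Nc73EF (0.50, limma adjusted p = 0.027) were called as well. Over all tested genes the median of this difference was 0.19, and -0.19 with equal column totals, under which Mdh2 was at 0.66 (limma adjusted p = 0.049). The labels give no sequencing run or date for the sets.

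**Figure D4:**
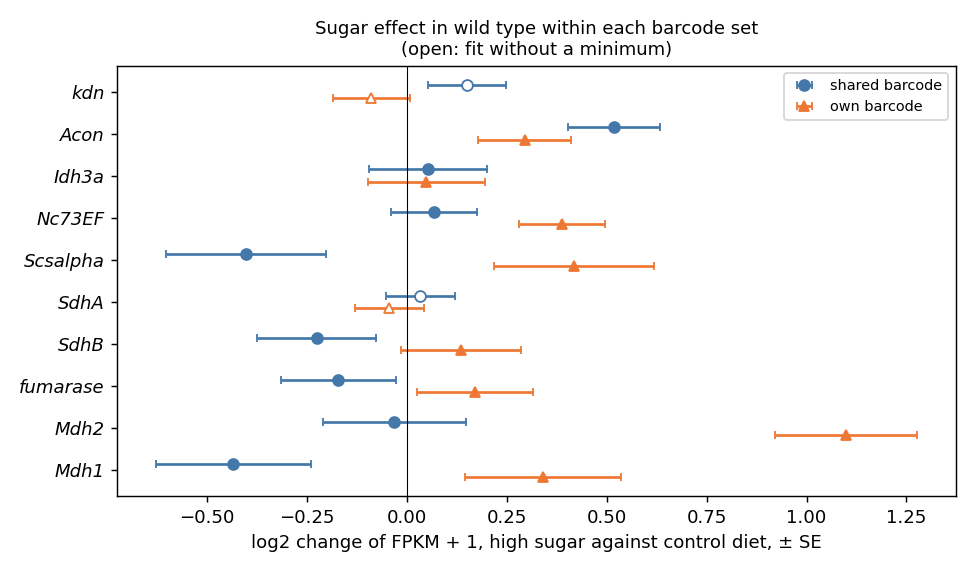
Log2 change of FPKM + 1 with high sugar in wild type, with its standard error, within the shared-barcode libraries (circles) and the own-barcode libraries (triangles), 3 on each diet in each set. Open symbols (kdn and SdhA) come from the fit without a minimum. Mdh2 lies at -0.03 in the shared-barcode set and at 1.099 in the own-barcode set.

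Other subunits of the same enzymes were examined from a list of 9, of which 6 passed the minimum. The list and these 6 also include Idh, a separate NADP-dependent isocitrate dehydrogenase. In the knockdown on high sugar 4 were higher than in wild type and 1 lower, against 27.2% and 33.4% of all tested genes, with a median log2 change of 0.55 beside -0.08 over all tested genes. Idh3g, another subunit of the NAD-dependent isocitrate dehydrogenase, was at 0.258 and 0.339 FPKM in that group, against 2.95 to 5.34 in wild type on high sugar and 4.36 to 5.33 in the knockdown on the control diet. Its log2 change against wild type was -2.35 ± 0.26 (SE, limma adjusted p = 3.1e-06), the same direction as Idh3a. Idh3b, a further subunit of that enzyme with a mean below the minimum, went the other way. It was at 1.61 and 1.67 FPKM in that group and at most 1.13 in all other libraries. The NADP-dependent isocitrate dehydrogenase Idh was higher in the knockdown on both diets, by 1.36 ± 0.23 on control food (limma adjusted p = 0.0017) and 1.73 ± 0.26 on high sugar (limma adjusted p = 4.7e-05). SdhC, a membrane anchor of succinate dehydrogenase, was at 3.13 and 5.77 FPKM in the knockdown on high sugar and at 0.834 to 1.75 in all other libraries (1.36 ± 0.20 against wild type, limma adjusted p = 4.6e-05). Dld, the dihydrolipoamide dehydrogenase shared by the oxoglutarate and pyruvate dehydrogenases, was higher by 0.50 ± 0.12 (limma adjusted p = 0.0017), a call lost without replicate 2 of the knockdown on high sugar (0.35, limma adjusted p = 0.055). The remaining call, ScsbetaG, the beta subunit of the GTP form of succinyl-CoA synthetase, was named after its value was seen (0.60 ± 0.21, limma adjusted p = 0.021) and was not called without either library of that group (0.61 and 0.59, limma adjusted p = 0.079 and 0.094).

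In wild type, sugar raised 2 of these 6 genes, against 9.44% of all tested genes, Idh3g by 0.60 ± 0.17 (SE, limma adjusted p = 0.026) and Dld by 0.37 ± 0.08 (limma adjusted p = 0.0055). Idh3g was at 4.04 to 4.58 FPKM in the shared-barcode and 0.920 to 1.54 in the own-barcode libraries on the control diet. Among the sets it was called only in the own-barcode one, and the difference between the sets was itself called (1.04 ± 0.21, limma adjusted p = 0.0044). The Idh3g call was lost in 10 of 27 alternatives, among them no minimum (limma adjusted p = 0.066) and the replicate block (0.60, limma adjusted p = 0.083). Without the own-barcode libraries Idh3g was at 0.08 (limma adjusted p = 0.83) and Dld at 0.23 (limma adjusted p = 0.30), neither of them called. Of 16 related genes and tissue-limited paralogs 2 passed the minimum, both iron regulatory proteins related to cytosolic aconitase. Irp-1B rose with sugar in wild type (0.67 ± 0.14, limma adjusted p = 0.0050), which was not called without the own-barcode libraries (0.30, limma adjusted p = 0.37). It was at 0.68 ± 0.18 in the knockdown against wild type on control food (limma adjusted p = 0.043), and this call was lost in 16 of 27 alternatives, among them no minimum, the length trend removed and the replicate block (0.68, limma adjusted p = 0.11). Irp-1A had an interaction of 0.71 ± 0.27 (limma adjusted p = 0.038), lost in 17 of 26 alternatives. Among the other subunits the interaction was called for Idh3g (-2.79 ± 0.32), Dld (0.80 ± 0.14) and SdhC (1.29 ± 0.25), against 51.8% of all tested genes. The paralogs Scsalpha2, SdhAL, SdhBL, Fum3 and Fum4 were listed at 0 in every library. CG1544, a paralog of Nc73EF (Ogdh) with a mean just below the minimum (0.964 FPKM), was above 0 in every library, at 0.558 to 1.52.

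Pyruvate reaches the cycle through the mitochondrial pyruvate carrier and pyruvate dehydrogenase, or through pyruvate carboxylase. Of 10 listed genes of this entry 6 passed the minimum, and 5 were lower in the knockdown than in wild type on high sugar, against 33.4% of all tested genes, with a median log2 change of -0.83 beside -0.08 over all tested genes. Pyruvate dehydrogenase kinase (Pdk), which inhibits pyruvate dehydrogenase, was at 2.13 and 3.05 FPKM there, against 10.4 to 16.1 in wild type on high sugar and 13.1 to 23.3 in the knockdown on the control diet (-1.95 ± 0.22 against wild type, SE, limma adjusted p = 4.7e-06). The carrier subunit Mpc1 was lower by a log2 change of -1.20 ± 0.19 (limma adjusted p = 6.4e-05). Both other listed genes of the carrier family stayed below the minimum mean. CG9396 went the other way, at 1.03 and 2.16 FPKM in the knockdown on high sugar and 0 to 1.005 in all other libraries. CG9399, at 0.373 and 0.489, overlapped the other libraries (0 to 0.414). Of the enzyme's own subunits muc was at -0.84 ± 0.13 (limma adjusted p = 8.7e-05) and Pdha at -0.74 ± 0.18 (limma adjusted p = 0.0026). The remaining call, pyruvate carboxylase (PCB), was named after its value was seen (-0.81 ± 0.33, limma adjusted p = 0.045), and was not called in 16 of 26 alternatives, among them median-of-ratios scaling and the length trend removed (0.03), which left 4. In wild type sugar raised PCB by 0.99 ± 0.22 (limma adjusted p = 0.0078), and without the own-barcode libraries PCB was at 0.29 and not called (limma adjusted p = 0.46). Pdha was at 0.38 ± 0.12 (limma adjusted p = 0.047), a call lost in 21 of 27 alternatives, among them no minimum, the length trend removed and the replicate block (0.38, limma adjusted p = 0.077). In the knockdown on the control diet muc was lower by a log2 change of -0.46 ± 0.12 (limma adjusted p = 0.031), lost in 7 of 27 alternatives, among them the replicate block (-0.46, limma adjusted p = 0.096). Of the pyruvate list, Pdk (-2.18 ± 0.28) and Mpc1 (-1.10 ± 0.23) had an interaction, against 51.8% of all tested genes.

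Genes that exchange malate, citrate and aspartate with the cytosol went in different directions. Of 9 listed, 8 passed the minimum, and with sugar in wild type 2 rose and 2 fell, against 9.44% and 6.08% of all tested genes. Malic enzyme (Men), which makes NADPH from malate, rose by 0.77 ± 0.19 (SE, limma adjusted p = 0.013) and the dicarboxylate carrier Dic1 by 0.42 ± 0.13 (limma adjusted p = 0.035). The mitochondrial aspartate aminotransferase Got2 fell by 0.88 ± 0.13 (limma adjusted p = 0.00053) and glutamate dehydrogenase (Gdh) by 0.72 ± 0.23 (limma adjusted p = 0.048). Without a minimum Dic1 (limma adjusted p = 0.081) and Gdh (limma adjusted p = 0.12) were not called, nor with the replicate block (0.42, limma adjusted p = 0.085, and -0.72, limma adjusted p = 0.13), and over all alternatives these calls were lost in 14 of 27 and 16 of 28. Men was not called without the own-barcode libraries (0.36, limma adjusted p = 0.52), while Got2 was called in each of 28 alternatives. Got2 was also lower in the knockdown on the control diet, at -0.96 ± 0.17 (limma adjusted p = 0.0029). Its interaction was 1.31 ± 0.24, beside -1.07 ± 0.23 for Dic1 and 1.00 ± 0.35 for Men, where 51.8% of all tested genes were called. That of Men was lost in 5 of 26 alternatives. Within the knockdown, sugar raised Men by 1.77 ± 0.30 (limma adjusted p = 0.00014) and the citrate carrier sea by 2.37 ± 0.52 (limma adjusted p = 0.0013). The sea values there were 5.69, 0.854 and 0.547 FPKM on control food and 10.8 and 15.4 on high sugar. Gdh, Dic1 and aralar1, the last an aspartate-glutamate carrier, fell, where 29.2% of all tested genes were higher and 31.1% lower. These 3 falls were not called without replicate 2 of the knockdown on high sugar (limma adjusted p = 0.14, 0.053 and 0.14).

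**Figure D5:**
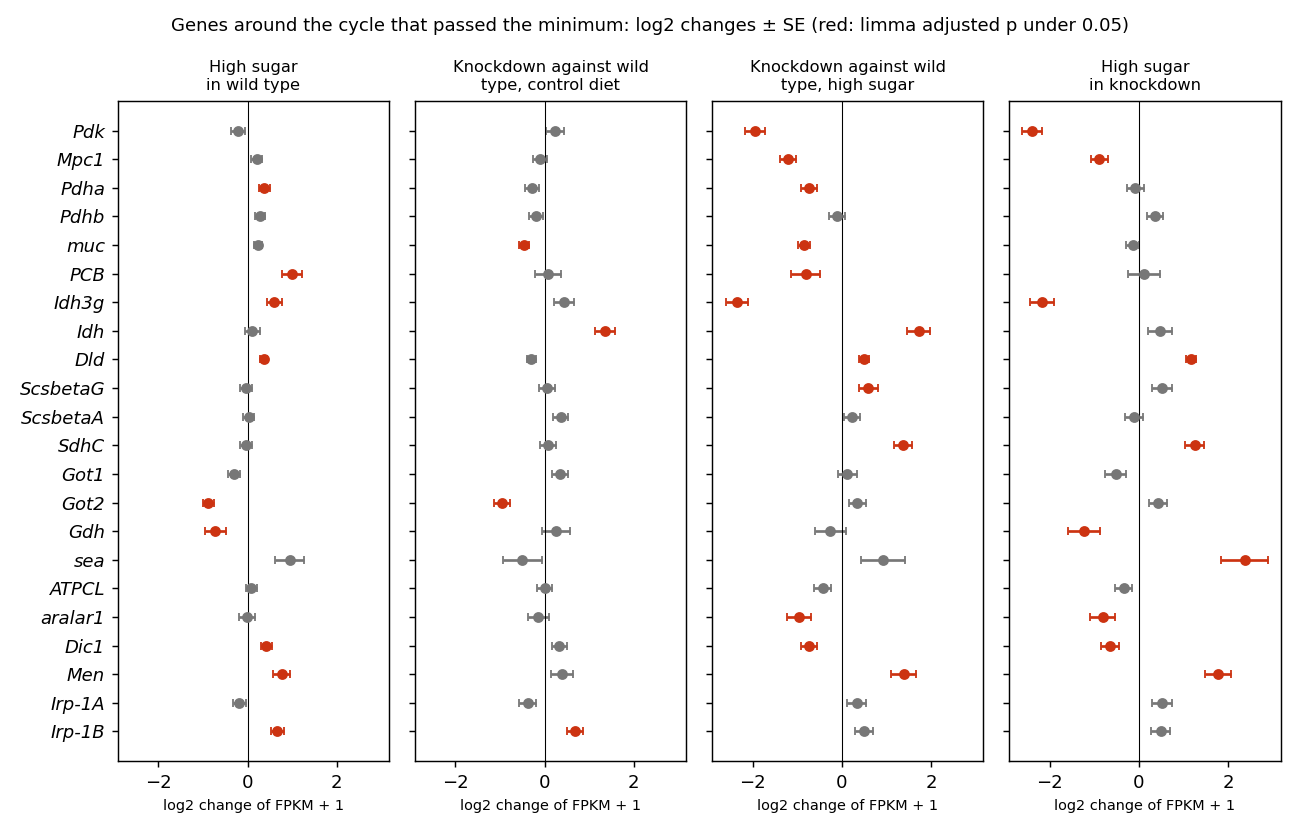
Log2 change of FPKM + 1 with its standard error for the listed genes around the cycle that passed the minimum mean, in the 4 comparisons between groups. Red marks a limma adjusted p under 0.05. In the third panel Pdk lies at -1.95, Idh3g at -2.35, SdhC at 1.36 and Idh at 1.73.

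The 10 genes did not vary as 1 block. Over the 17 libraries the Pearson r of their log2 values, taken pair by pair, had a median of 0.1999 and a range of -0.75 to 0.87, with 31 of 45 pairs above 0. The lowest pair was Acon with fumarase and the highest SdhA with fumarase. Over the 12 wild-type libraries alone these pairs were at 0.000425 and 0.191, so both values over all libraries rest on the knockdown ones. Scsalpha and fumarase were at 0.776 over all libraries and 0.757 over wild type. The libraries share groups, diet and scaling, and r is a description here. The genes most like the members' mean profile, among 2375 others tested over the 17 libraries, were Thiolase (Mtpbeta, of fatty acid oxidation, r = 0.850), the ribosomal protein genes RpL23A (0.830) and RpL18 (0.822), Pdhb, a subunit of pyruvate dehydrogenase (0.817), and nimB2 (0.814).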

How the data were processed

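Per the submitters' processing notes, the tools were Bowtie 0.12.7, TopHat 1.3.2 and Cufflinks 1.1.0 on genome build dm3. The role of each, the annotation and the options are not given in the sources used here. The deposited values, 1 column per library, were taken as FPKM from that tool list, since the header names no unit; counts and depth are unknown, so no counting interval or floor is given.

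Values were transformed as log2(FPKM + 1), and the 2383 genes whose mean in the 17 libraries reached 1 FPKM were fitted with limma 3.58.1 in R 4.3.3 (4 groups, barcode set as additive term, trended robust empirical Bayes). Knockdown libraries all have shared barcodes, so their set term comes from wild type. Tests were 2-sided, with Benjamini-Hochberg adjustment over all tested genes within each comparison. Within-set effects came from a second fit, which had separate means per group and set. The fits were tested on simulated data. Lengths, overlaps and current symbols came from a Release 6 annotation, used without coordinates; 96.4% of tested genes had a length. The length trend was removed per library by loess with a span of 0.5.

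All 10 members were named in each comparison. Called genes of 4 neighbouring lists were to be named up to 4 per list and comparison by smallest p. For the 4 comparisons between groups some are shown only in the figure, and most calls within the barcode sets are not listed. Those named beyond the limit are marked. The members and lists were chosen with earlier results of these data known. Alternatives were pseudocount, minimum, scaling, set term, replicate block, length trend, plain limma and leaving out libraries.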

Additional observations from a re-analysis of the deposited data

Results flagged for a closer look

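For 4 genes the effect of high sugar differed between the knockdown and wild type by the test of the interaction. The values, as log2 differences with their limma adjusted p, were -1.07 for Acon (8.6e-05), -0.51 for Idh3a (0.036), 1.103 for Scsalpha (0.012) and 1.22 for fumarase (0.00023). Acon was higher with sugar in wild type and lower with sugar in the knockdown, while the other genes were called in the knockdown alone. The rise of Acon lost its call with equal column totals (0.30, limma adjusted p = 0.10). Its fall lost the call with the length trend removed (-0.09, limma adjusted p = 0.63). The Idh3a interaction call was lost in 8 of the 17 fits that left out a library and in 7 of 9 other alternatives. All 4 interactions rest on the 2 knockdown libraries on high sugar, whose fat body markers and length slope stood apart. The part of the markers was not tested.

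For Mdh2 the effect of sugar in wild type differed between the own-barcode and the shared-barcode libraries, by 1.13 on the log2 scale (limma adjusted p = 0.0072). No single library of the 20 groups of values examined (10 genes in the 2 wild-type groups) stood apart from the rest of its group.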

How the results depend on the processing

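Under the alternatives, each changing 1 choice, the 18 changes of single members that were called kept their direction in all 467 values, and 31 of these lost the call. They are given beside their results. With a pseudocount of 0.1 in place of 1 Acon was at -2.55 in the knockdown against wild type on high sugar and at -2.02 in the interaction, so the size of a change in a low gene depends on that choice.

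The number of members called moved by more than 1.5 times as follows. With a minimum mean of 5, which left 3 members to test, it was 0 for sugar in wild type, 2 for the knockdown on high sugar, 1 for sugar in the knockdown, 2 for the interaction, 0 and 1 within the shared and own sets and 3 for their difference. With equal column totals it was 0 for sugar in wild type, 1 in the own set and 2 for the difference between sets. With the length trend removed it was 0 in the shared set and 3 for the difference, and without both knockdown high-sugar libraries, an alternative chosen after seeing the data, it was 2 for the difference. Smaller moves were 7 for the knockdown on high sugar and 5 for sugar in the knockdown without a minimum, 6 for the former with the length trend removed, 5 for the latter with equal column totals, 3 for the interaction with median-of-ratios scaling, without the set term and without wild-type replicates 4 to 6, and 3 for sugar in the knockdown without those replicates. With median-of-ratios scaling sugar in the knockdown kept a count of 4, with Mdh1 in and Idh3a out. Leaving out each library in turn gave 1 to 2 for sugar in wild type, 0 for the knockdown on the control diet, 3 to 5 for the knockdown on high sugar, 3 to 4 for sugar in the knockdown and 3 to 5 for the interaction. Within the shared set it gave 0 to 1, within the own set 1 to 3, and for their difference 1 to 3.

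Under these alternatives a change of sign was seen only in members not called in the report, in 93 values, and 91 of these were called under neither setting. The others were those of Nc73EF with the length trend removed, 0.79 in the knockdown on high sugar (limma adjusted p = 0.00044) and 0.65 in the interaction (0.011), where the cause was not tested. By setting, the values that turned were as follows. With equal column totals the values were Idh3a -0.051 and Scsalpha -0.13 for sugar in wild type, Scsalpha -0.073 and Mdh2 -0.057 for knockdown on the control diet, Nc73EF -0.085 for sugar in the knockdown, SdhB -0.037 for the interaction, Mdh2 0.079 for sugar in the shared-barcode set, Idh3a -0.23, SdhB -0.11, fumarase -0.12 and Mdh1 -0.065 for sugar in the own-barcode set, fumarase -0.022 for the difference between sets. Median-of-ratios scaling gave Scsalpha -0.017 for sugar in wild type, Nc73EF 0.077 and Mdh1 0.17 for knockdown on high sugar, SdhB 0.044 for sugar in the knockdown, Mdh2 0.044 for sugar in the shared-barcode set, Idh3a -0.041 for sugar in the own-barcode set. Among called genes of the neighbouring lists PCB turned with the length trend removed (0.034 in the knockdown on high sugar, not called). Removal of that trend gave Scsalpha -0.0073 for sugar in wild type, Nc73EF 0.79 for knockdown on high sugar, Nc73EF 0.65 and SdhB -0.075 for the interaction, Nc73EF -0.026 for sugar in the shared-barcode set. Without wild-type replicates 4 to 6 they were Scsalpha -0.40 and Mdh2 -0.031 for sugar in wild type, Scsalpha -0.20 and Mdh2 -0.27 for knockdown on the control diet, Nc73EF 0.059 and Mdh1 0.17 for knockdown on high sugar. Leaving out the set term gave Scsalpha -0.23 for knockdown on the control diet. The replicate block gave SdhB -0.0024 for the interaction. Leaving out each library in turn gave ranges that span 0. For sugar in wild type it gave Scsalpha -0.10 to 0.10, SdhB -0.083 to 0.0038, fumarase -0.054 to 0.066 and Mdh1 -0.12 to 0.053. For knockdown on the control diet it gave Idh3a -0.27 to 0.045, Scsalpha -0.17 to 0.20 and Mdh2 -0.087 to 0.20. For knockdown on high sugar it gave Nc73EF -0.10 to 0.026, SdhB -0.14 to 0.42 and Mdh1 -0.31 to 0.26. For sugar in the knockdown it gave SdhB -0.31 to 0.25. For the interaction it gave SdhB -0.27 to 0.29. For sugar in the shared-barcode set it gave Idh3a -0.012 to 0.12, Nc73EF -0.043 to 0.15 and Mdh2 -0.16 to 0.10. For sugar in the own-barcode set it gave Idh3a -0.019 to 0.11. For the difference between sets it gave Idh3a -0.074 to 0.061.

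Replicate numbers are shared between groups, but same-numbered libraries did not deviate together: the correlation of their deviations ran from -0.24 to 0.22 over 18 pairs, with 5 above 0.1. With the replicate block in place of the set term the members called were 1, 0, 5, 4 and 3 in the 5 comparisons, in the order above. Equal column totals moved the median over all tested genes to -0.20 for the knockdown on high sugar and -0.17 for sugar in the knockdown, and the share of higher genes among those called was 60.8% for sugar in wild type with the values as deposited and 45.5% with equal totals. Read depth is unknown, no control hairpin was included, and the knockdown on high sugar has 2 libraries, both low in fat body markers.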
